A study of Mus musculus with 13 samples.

Results

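The mouse esophagus was examined after a carcinogen for 10 genes that p53 switches on: Cdkn1a, Mdm2, Ccng1, Phlda3, Bax, Trp53inp1, Zmat3, Aen, Sesn1 and Eda2r. They were chosen by symbol, all 10 were found among the 20054 genes of the count table, and all 10 were among the 16599 genes that passed the filter on low counts. RNA of the whole esophagus had been sequenced in 13 libraries, 6 from wild-type (WT) C57/BL6 mice and 7 from dblGATA mice (named DdblGATA in the study's design and KO in the sample titles). Both groups had been given 4-NQO (4-nitroquinoline 1-oxide), a carcinogen that forms bulky DNA adducts, over 8 weeks, followed by 8 weeks of propylene glycol, the vehicle, and all 13 libraries are labelled pre-cancer. The dblGATA allele lacks a double GATA-binding site in the Gata1 promoter, without which eosinophils do not develop, and every cell of these mice carries it. Age and sex were not given in the labels, no group without 4-NQO was analysed here, and whether every library is a different mouse is not stated, which means that p-values here rest on the spread between libraries, part of which may be technical.

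The transcription factor p53 is kept low by constant breakdown and is stabilised when checkpoint kinases sense DNA damage. It then binds DNA as a tetramer and raises genes that stop the cell cycle, start cell death, repair DNA or end the response. In squamous epithelium the related factor p63 marks the basal layer and binds much the same DNA motif, so some p53 targets are also p63 targets there.

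Counts per library ranged from 66.3 to 98.2 in units of 1e+06, and levels are given as CPM, the counts per 1e+06 counts of a library after TMM scaling. In WT 4 and WT 6, 10.1% and 16.9% of counts belonged to the ribosomal RNA gene Rn18s, against at most 3.24% elsewhere. Gata1 RNA had 3 to 106 counts in WT (10 in the next library after WT 3) and 1 to 9 in dblGATA, and Ccr3, an eotaxin receptor of eosinophils, stood at 0.681 ± 0.338 CPM (SD, n = 6) and 0.139 ± 0.116 CPM (SD, n = 7). The Ccr3 groups overlapped, with dblGATA 6 (0.387 CPM) above WT 4 (0.38 CPM) and WT 5 (0.251 CPM). Of 6 listed eosinophil genes 4 were tested, and Ccr3 alone was called lower, beside 6.39% of all genes. The other 3 tested were not called (edgeR, adjusted p under 0.05). All 12 listed markers of squamous differentiation were detected in the tissue. Of the other marker lists, 7 of 9 basal epithelium genes and 11 of 12 cell cycle genes were higher in dblGATA and 6 of 16 skeletal muscle genes were lower (edgeR, adjusted p under 0.05), beside 7.10% of all genes called higher and 6.39% called lower, and no gene of these lists was at 0. In the squamous differentiation list 2 of 12 genes were higher (median log2 fold change 0.39, 12 of 12 positive), and in the adipocyte list 0 of 6 were called (median -0.82). The mean log2 CPM of the basal list ranged from 8.08 to 8.47 in WT and from 8.64 to 9.03 in dblGATA. The cell cycle list ranged from 4.30 to 4.88 and from 4.96 to 5.33, and the skeletal muscle list from 9.89 to 10.7 and from 9.27 to 10.4.

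In some of these genes the DNA before the start matches the motif that p53 reads. The motif, the p53 decamer, is 10 bases long with a core of C, A or T, A or T, and G. Its pattern is the same on both strands, and a full p53 element holds a pair of decamers. Promoter sequences from RefSeq (GRCm38.p6) matched 8 of the 10 genes, with 11 start sites, while Trp53inp1 and Zmat3 had no entry. In the 250 bases before a start, 6 of the 11 starts, each in another gene, held an exact decamer, whereas 7.13% of the 32851 promoters in the table did. With at most 1 mismatch outside the core, a decamer was found before 7 of the 11 starts and in 34.4% of all promoters. A pair of such decamers with at most 13 bases between them was found before 1 of the 11 starts, that of Cdkn1a, and in 1.14% of all promoters. The core CATG was found before 2 of the 11 starts and in 53.9% of all promoters. A match is a description of letters and not a measured site. The sequences below are shown because they are the stretches of the arrest gene Cdkn1a, of both feedback genes Mdm2 and Ccng1, of the death gene Bax and of the metabolic gene Sesn1 in which the motif was found. Capitals mark the decamers.
Cdkn1a: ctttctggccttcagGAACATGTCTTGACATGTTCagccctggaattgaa
Mdm2: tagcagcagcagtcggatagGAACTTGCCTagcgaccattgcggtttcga
Ccng1: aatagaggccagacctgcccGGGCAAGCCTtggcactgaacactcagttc
Bax: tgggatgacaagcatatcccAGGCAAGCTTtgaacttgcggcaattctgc
Sesn1: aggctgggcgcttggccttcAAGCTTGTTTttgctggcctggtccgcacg

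The Cdkn1a stretch lies on the plus strand at chr17:29090913-29090962, and its 2 adjacent decamers begin 51 bases before the more distal of 2 starts. The second of these carries 1 mismatch, and another exact decamer, not printed whole, begins 73 bases before the same start. The Mdm2 stretch lies on the minus strand at chr10:117710915-117710964, with the decamer 186 bases before the start, and the Ccng1 stretch on the minus strand at chr11:40755442-40755491, with the decamer 185 bases before the start. In GENCODE M21, on the same build, none of these 3 stretches overlapped a gene. The Bax stretch, on the minus strand at chr7:45467070-45467119, overlapped an intron of the predicted gene Gm45808, and the Sesn1 stretch, on the plus strand at chr10:41887246-41887295, lay in an intron of Sesn1 before its second start. The exact decamer of Aen lay in an exon of Aen and is not printed, and the 250 bases before the start of Phlda3 held no decamer of either kind.

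Of the 10 p53 targets 9 did not pass the test between the groups, and 1, Ccng1, was lower in dblGATA. No gene of the 10 had groups that did not overlap, beside 2.66% of all genes tested. Across all genes 13.5% were called in either direction (edgeR quasi-likelihood test, Benjamini-Hochberg adjusted p under 0.05), 7.10% higher and 6.39% lower, so that 1 of 10 is near the background and is no result about the genes as a group. The split of all calls was 1179 higher and 1060 lower, and under upper-quartile scaling it was 830 higher and 1299 lower. The median log2 fold change of the 10 genes was 0.02, beside -0.0024 for all genes tested. For the 9 genes that did not pass, the 95% intervals of the log2 fold change lay between -0.33 and 0.36. These are levels of the whole tissue, in which fewer cells of a type and less RNA per cell cannot be told apart.

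**Figure D1:**
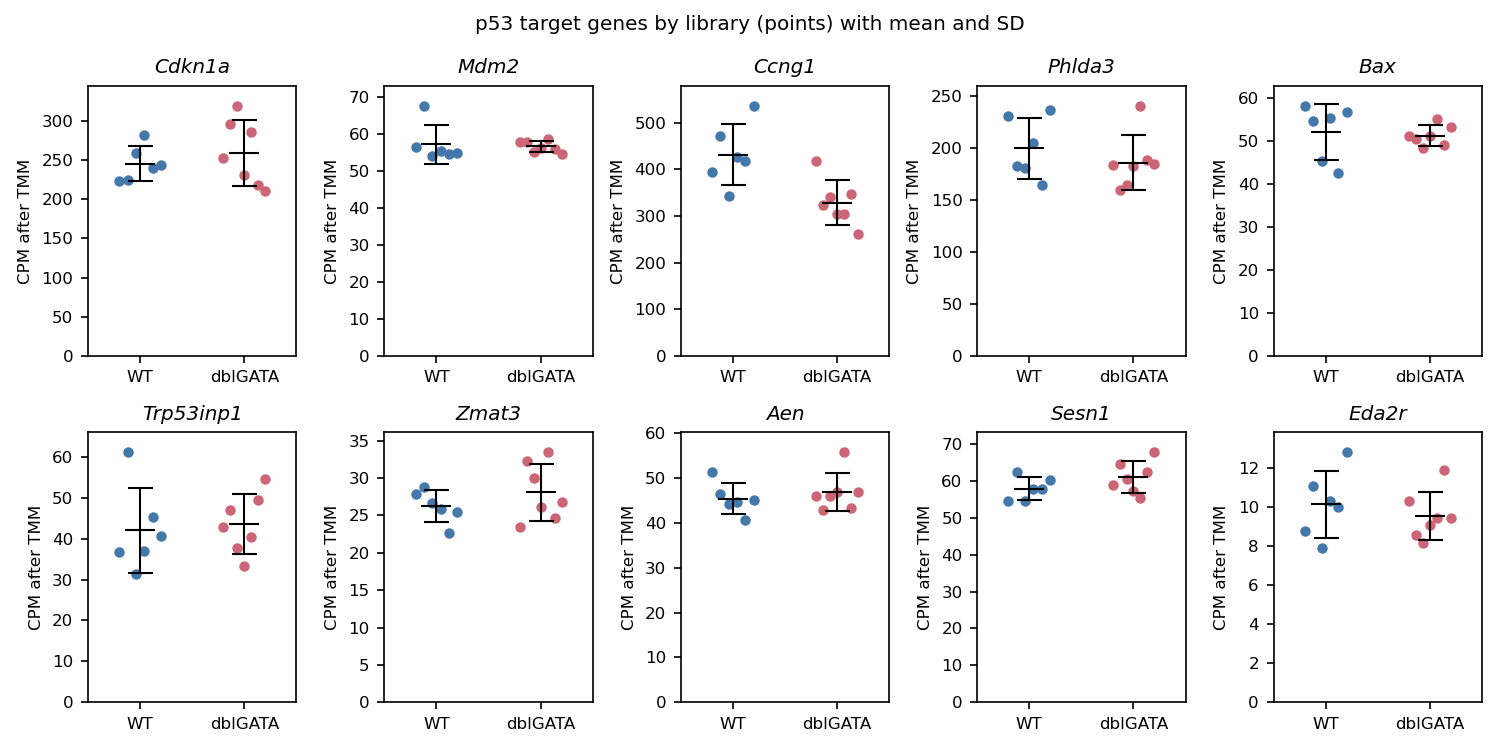
Level of each p53 target gene in CPM after TMM scaling (vertical axes from 0) in the 6 WT and 7 dblGATA libraries. Points are libraries, and bars are the mean and SD. For Ccng1, 5 of 7 dblGATA libraries lie below every WT library. For Cdkn1a, 3 lie above and 2 lie below every WT library. For the remaining genes most dblGATA points lie within the WT range.

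Among the genes that feed back on p53, Ccng1 stood apart from Mdm2. Ccng1 encodes cyclin G1, which brings a phosphatase to Mdm2 and so helps to end the p53 response. Its lowest, median and highest levels were 344, 422 and 536 CPM in WT and 261, 324 and 417 CPM in dblGATA. The groups overlapped: 5 of 7 dblGATA libraries lay below every WT library, and dblGATA 1 (417 CPM) and dblGATA 6 (348 CPM) lay above WT 3 (344 CPM). The mean of 432 ± 66.1 CPM (SD, n = 6) in WT fell to 329 ± 48.6 CPM (SD, n = 7). The edgeR log2 fold change was -0.39 ± 0.11 (SE) with adjusted p = 0.037, and no dblGATA library lay above the WT median. The authors' deposited table lists Ccng1 at -0.36 ± 0.11 (SE) on the log2 scale, with adjusted p = 0.0174.

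Ccng1 kept its sign without any 1 library, with log2 fold changes from -0.46 to -0.33, but 8 of the 13 omissions ended the call. Leaving out WT 1, WT 4 or WT 6 gave an edgeR adjusted p of 0.0517, 0.0716 or 0.0879. Leaving out dblGATA 2, 3, 4, 5 or 7 gave 0.0585, 0.0632, 0.0613, 0.0771 or 0.0741. The lists of basal epithelium and skeletal muscle differed between the same groups, with the ranges given above. With the muscle score as a covariate the log2 fold change of Ccng1 was -0.21 ± 0.14 (SE, edgeR adjusted p = 0.715), and with Rn18s as a covariate it was -0.31 ± 0.13 (SE, 0.178). With the basal epithelium score, on which the groups do not overlap, it was 0.14 ± 0.19 (SE, 1), so the group and that score cannot be told apart. Without WT 4 and WT 6 it was -0.32 ± 0.12 (SE, 0.182). With each of these covariates, and without WT 4 and WT 6, 0 genes in all were called.

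Mdm2, the ubiquitin ligase that marks p53 for breakdown and is itself a p53 target, stood at 54.0, 55.1 and 67.5 CPM (lowest, median and highest) in WT and at 54.5, 56.2 and 58.7 CPM in dblGATA. The dblGATA range lay wholly within the WT range, and WT 2 alone stood above it. The log2 fold change was -0.01 (95% interval -0.13 to 0.10, edgeR adjusted p = 0.888), and without WT 2 it was 0.04. Its coefficient of variation was 9.05% in WT and 2.77% in dblGATA.

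Trp53inp1, a nuclear protein that acts with p53 in cell death and also serves autophagy, ranged from 31.4 to 61.0 CPM in WT (median 38.8) and from 33.3 to 54.6 CPM in dblGATA (median 42.9). It had the widest spread of the 10 genes, with a coefficient of variation of 24.7% in WT and 16.7% in dblGATA, and its highest WT value came from WT 2. The log2 fold change was 0.05 (95% interval -0.26 to 0.36, edgeR adjusted p = 0.83). Zmat3, a zinc-finger protein that binds RNA, ranged from 22.7 to 28.8 CPM in WT (median 26.3) and from 23.5 to 33.4 CPM in dblGATA (median 26.8). In Zmat3, 3 dblGATA libraries (dblGATA 2, dblGATA 3 and dblGATA 5) lay above every WT library, but the log2 fold change of 0.10 (95% interval -0.09 to 0.29) did not pass (edgeR adjusted p = 0.452).

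Cdkn1a, which encodes the cyclin-dependent kinase inhibitor p21 and carries out most of the cell cycle arrest by p53, was spread more widely in dblGATA. It stood at 223, 242 and 282 CPM (lowest, median and highest) in WT and at 210, 252 and 319 CPM in dblGATA. The 3 libraries dblGATA 2, dblGATA 3 and dblGATA 5 (296, 319 and 286 CPM) lay above every WT library, and dblGATA 6 and dblGATA 7 (218 and 210 CPM) lay below every WT library. The log2 fold change was 0.07 ± 0.10 (SE, 95% interval -0.15 to 0.29, edgeR adjusted p = 0.645).

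None of the 4 death genes passed the test. Bax, which opens the outer mitochondrial membrane, ranged from 42.5 to 58.2 CPM in WT (median 55.1) and from 48.4 to 55.2 CPM in dblGATA (median 51.2). All dblGATA values lay within the WT range, in which WT 3 (45.3 CPM) and WT 5 (42.5 CPM) were low, and the log2 fold change was -0.02 (95% interval -0.18 to 0.13, edgeR adjusted p = 0.853). Aen, a nuclease that cuts DNA in dying cells, ranged from 40.5 to 51.3 CPM in WT (median 44.9) and from 42.7 to 55.6 CPM in dblGATA (median 46.0). Its log2 fold change was 0.04 (95% interval -0.10 to 0.19, edgeR adjusted p = 0.68), and without dblGATA 5, the highest library, it was 0.00.

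Phlda3, which restrains the survival kinase Akt by competing for membrane lipids, ranged from 164 to 236 CPM in WT (median 193) and from 159 to 240 CPM in dblGATA (median 183). In dblGATA the library dblGATA 5 stood at 240 CPM and the next at 188 CPM, while in WT both WT 1 and WT 6 reached 230 CPM or more. The log2 fold change was -0.10 (95% interval -0.33 to 0.13, edgeR adjusted p = 0.53). Eda2r, a receptor of the TNF receptor family that binds ectodysplasin A2, ranged from 7.91 to 12.8 CPM in WT (median 10.2) and from 8.14 to 11.9 CPM in dblGATA (median 9.42). The dblGATA values lay within the WT range (log2 fold change -0.09, 95% interval -0.33 to 0.16, edgeR adjusted p = 0.623).

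Sesn1, a sestrin that senses amino acids and lowers mTORC1 activity, had the tightest WT values of the 10 genes. It ranged from 54.4 to 62.2 CPM in WT (median 57.8, coefficient of variation 5.28%) and from 55.3 to 67.6 CPM in dblGATA (median 60.5, 7.02%). In 3 dblGATA libraries (dblGATA 2, dblGATA 6 and dblGATA 7) levels lay above every WT library, and the log2 fold change of 0.08 (95% interval -0.04 to 0.20) did not pass (edgeR adjusted p = 0.37).

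**Figure D2:**
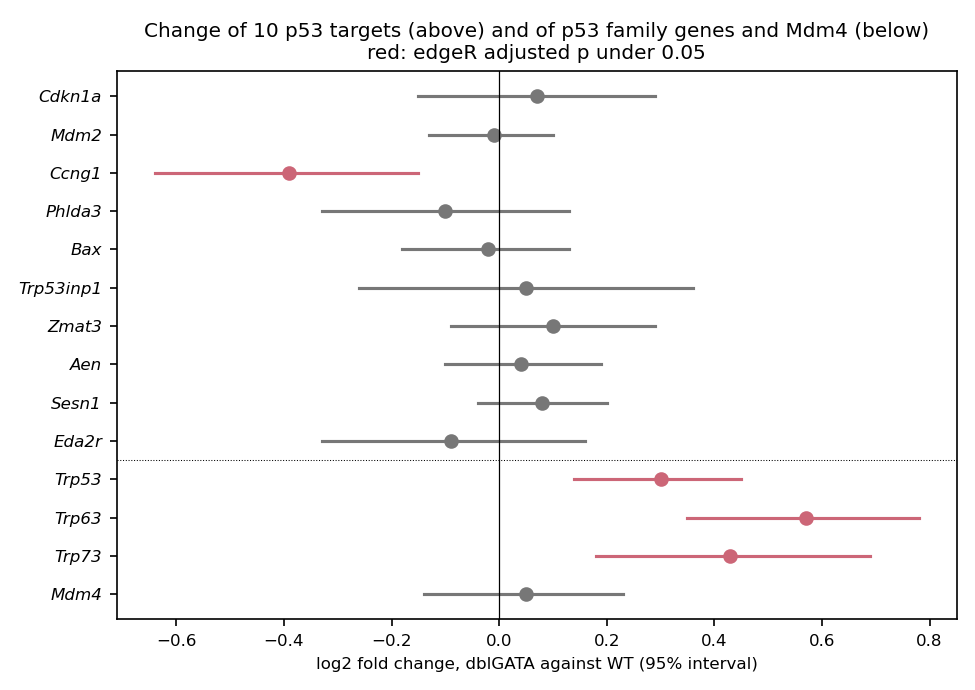
Log2 fold change, dblGATA against WT, with its 95% interval for the 10 p53 targets (above the dotted line) and for Trp53, Trp63, Trp73 and Mdm4 (below it). Red marks genes at an edgeR adjusted p under 0.05: Ccng1 lies at -0.39, and Trp53, Trp63 and Trp73 lie at 0.30, 0.57 and 0.43.

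Some libraries held the extremes of several of the 10 genes. Of the WT libraries, WT 2 held the highest value for 4 genes and the lowest for none, and WT 3 and WT 5 each held the lowest value for 4 genes and the highest for none. In dblGATA, dblGATA 5 held the highest value for 5 genes (Mdm2, Phlda3, Bax, Zmat3 and Aen) and the lowest for Sesn1. The library dblGATA 7 held the lowest values of Cdkn1a, Mdm2 and Ccng1 and the highest of Trp53inp1 and Sesn1. Relative to the mean of its own group, WT 2 was higher in 8 of 10 genes with a median log2 deviation of 0.12, WT 3 was higher in 2 of 10 with a median of -0.11, and WT 5 and dblGATA 4 were each higher in 1 of 10 with medians of -0.05 and -0.07.

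**Figure D3:**
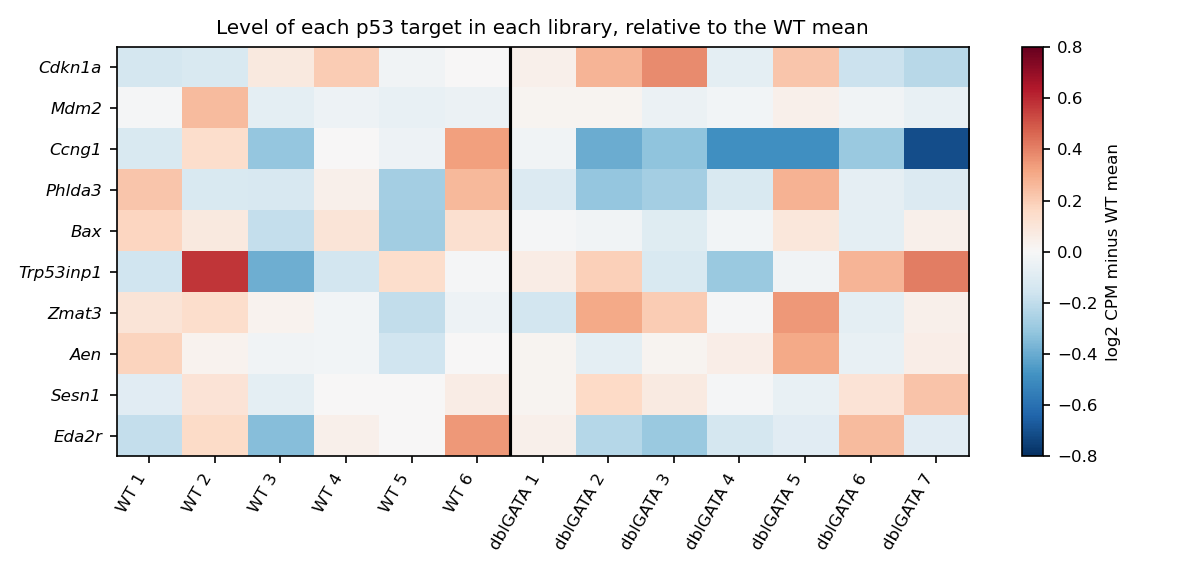
Log2 CPM of each p53 target (rows) in each library (columns) minus the WT mean of that gene, with red above and blue below it. The black line parts WT from dblGATA. Ccng1 is blue across the dblGATA libraries except dblGATA 1, where it is near 0 (-0.03). Phlda3 is also below its WT mean in every dblGATA library except dblGATA 5 (0.28), with values from -0.31 to -0.07. Cdkn1a is red in dblGATA 2, dblGATA 3 and dblGATA 5 and blue in dblGATA 6 and dblGATA 7.

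Ratios of counts within a library do not depend on how libraries are scaled, and 4 of them were tested by enumerating all 1716 divisions of the libraries into 6 and 7 (exact permutation test, two-sided). The ratio of Ccng1 to Cdkn1a, a pair chosen with results of these data known, ranged from 0.41 to 1.13 on the log2 scale in WT and from 0.10 to 0.73 in dblGATA, where 5 of 7 libraries lay below every WT library. Its mean differed by -0.46 (exact permutation p = 0.0157, and 0.0628 adjusted over the 4 ratios). The ratio of Mdm2 to its paralog and partner Mdm4 differed by -0.06 (exact permutation p = 0.393, adjusted 0.635). The ratio of Bax to Bcl2l1, which encodes the survival protein BCL-XL, differed by -0.05 (exact permutation p = 0.635, adjusted 0.635).

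The ratio of Bax to Bcl2, the founding survival gene of the family, differed by 0.21 (exact permutation p = 0.563, adjusted 0.635). In WT 5 this log2 ratio was 0.39, whereas it ran from 1.52 to 2.31 in the other WT libraries and from 1.56 to 2.27 in dblGATA. Without WT 5 the difference was -0.05 (exact permutation p = 0.773).

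**Figure D4:**
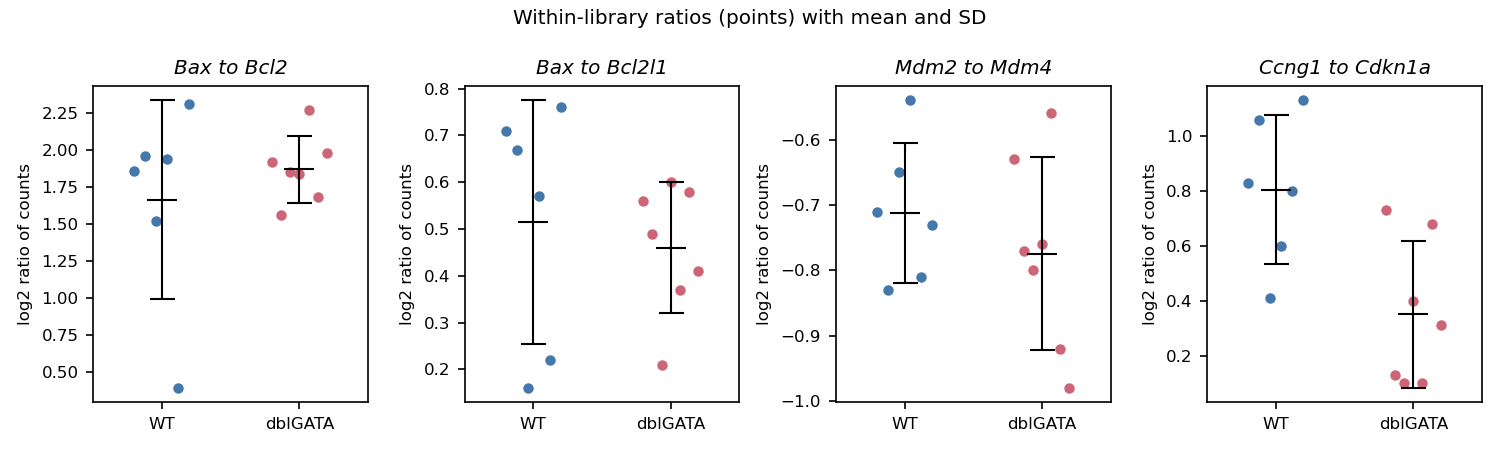
Log2 ratio of counts of 2 genes within each library for the 6 WT and 7 dblGATA libraries. Points are libraries, and bars are the mean and SD. For Ccng1 to Cdkn1a the dblGATA points sit lower (0.10 to 0.73 against 0.41 to 1.13), and for Bax to Bcl2 the library WT 5 sits at 0.39 below all others.

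RNA of p53 itself and of both relatives was higher in dblGATA. Of 20 listed genes, p53 and its regulators, 5 rose and none fell, beside 7.10% of all genes called higher and 6.39% lower. Their median log2 fold change was 0.18, beside -0.0024 for all genes. Trp53, which encodes p53, stood at 33.1 to 42.3 CPM in WT and at 40.0 to 52.0 CPM in dblGATA, where 5 of 7 libraries lay above every WT library. Its mean was 37.8 ± 3.25 CPM (SD, n = 6) in WT and 46.5 ± 4.38 CPM (SD, n = 7) in dblGATA (log2 fold change 0.30 ± 0.07 SE, adjusted p = 0.0241 by edgeR). Trp63, which encodes p63, rose by a log2 fold change of 0.57 ± 0.10 SE (adjusted p = 0.0158 by edgeR), and it is also a member of the basal epithelium list. Trp73, which encodes p73, rose from 5.15 ± 0.742 CPM to 6.95 ± 1.01 CPM (log2 fold change 0.43, edgeR adjusted p = 0.0328).

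Chek2, the checkpoint kinase that phosphorylates p53, was at 8.80 ± 0.519 CPM (SD, n = 6) in WT and 11.4 ± 1.28 CPM (SD, n = 7) in dblGATA (log2 fold change 0.38 ± 0.08 SE, adjusted p = 0.0179 by edgeR). All 7 dblGATA libraries lay above every WT library, as the groups of 2.66% of all genes did not overlap in CPM. Ppm1d, the phosphatase Wip1 that reverses checkpoint signals, rose by 0.27 on the log2 scale (edgeR adjusted p = 0.0445). Mdm4, the Mdm2 partner that blocks p53 activity, had a log2 fold change of 0.05 (95% interval -0.14 to 0.23, edgeR adjusted p = 0.746). The abundant regulators Usp7, a protease that frees Mdm2 and p53 of ubiquitin, and Cop1, a ubiquitin ligase, had log2 fold changes of 0.19 and -0.02 (edgeR adjusted p = 0.0985 and 0.823).

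Trp63 and Chek2 stayed called under all 13 omissions of a library. Trp53 lost it without WT 4, WT 6, dblGATA 5 or dblGATA 7, Trp73 without WT 1, WT 4, WT 6, dblGATA 2, dblGATA 3 or dblGATA 7, and Ppm1d without each library of WT, dblGATA 3, dblGATA 5 or dblGATA 7 (highest edgeR adjusted p = 0.0967). With the replicate number as a block, Trp63 stayed called (edgeR adjusted p = 0.0404). Chek2, Trp53, Trp73 and Ppm1d did not (edgeR adjusted p = 0.0564, 0.0532, 0.0565 and 0.0933). With the muscle score as a covariate Trp53 had a log2 fold change of 0.22, Trp63 0.31, Trp73 0.33 and Chek2 0.20, and none of the 4 passed (edgeR adjusted p from 0.685 to 0.686). In this fit, and in that with the basal epithelium score, 0 of 16599 genes were called. With the basal epithelium score Trp53 was at -0.12 and Chek2 at 0.03 (edgeR adjusted p = 1), again with groups that do not overlap on that score. The lowest log2 fold change in any of the 26 alternatives was 0.17 for Trp73, 0.18 for Ppm1d and 0.01 for Trp63. Since Trp63 is itself averaged into the basal epithelium score, the fit with that score adjusts this gene partly for itself.

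Of 39 further p53 targets, listed by role, 7 rose and 1 fell (20.5%, median log2 fold change 0.11), beside 13.5% of all genes called, 7.10% higher and 6.39% lower. Among 6 arrest genes, Sfn and Plk2 rose. Sfn, which encodes the epithelial 14-3-3 sigma protein, was at 772 ± 107 CPM (SD, n = 6) in WT and 1060 ± 156 CPM (SD, n = 7) in dblGATA (log2 fold change 0.45, edgeR adjusted p = 0.0264). Plk2, a polo-like kinase, rose by 0.41 on the log2 scale (edgeR adjusted p = 0.0255), with 6 of 7 dblGATA libraries above every WT library. Btg2, an antiproliferative cofactor, Plk3, another polo-like kinase, and Gadd45a, a stress-response gene, had log2 fold changes of 0.14, 0.24 and -0.23 (edgeR adjusted p = 0.294, 0.251 and 0.0666).

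Among 11 death genes, Perp and Apaf1 rose. Perp, a membrane protein of desmosomes that p63 also controls in stratified epithelium, was at 1230 ± 94.2 CPM (SD, n = 6) in WT and 1590 ± 229 CPM (SD, n = 7) in dblGATA (log2 fold change 0.37, edgeR adjusted p = 0.0314). Apaf1, the scaffold of the apoptosome, rose by 0.19 on the log2 scale (edgeR adjusted p = 0.034), but by limma on the authors' normalized signal it was at 0.07 (adjusted p = 0.704). In CPM all 7 dblGATA libraries lay above every WT library for Apaf1, beside 2.66% of all genes whose groups did not overlap. Ei24, a membrane protein of the endoplasmic reticulum, Aifm2, an oxidoreductase also called FSP1, and Siva1, a death-receptor partner, had log2 fold changes of 0.00, -0.33 and -0.28 (edgeR adjusted p = 0.993, 0.064 and 0.0668). Bbc3 (PUMA), Pmaip1 (NOXA) and Fas, named after their values were seen because they are classical death targets, had log2 fold changes of -0.29, 0.39 and -0.23 (edgeR adjusted p = 0.0888, 0.0699 and 0.124).

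Among 6 repair genes, Polh rose. Polh, the polymerase eta that copies past bulky lesions, was at 19.6 ± 1.45 CPM (SD, n = 6) in WT and 24.5 ± 1.65 CPM (SD, n = 7) in dblGATA. Every dblGATA library lay above every WT library (log2 fold change 0.32 ± 0.06 SE, adjusted p = 0.0169 by edgeR), as the groups of 2.66% of all genes did not overlap in CPM. Rrm2b, a ribonucleotide reductase subunit, Ercc5, an excision repair nuclease, and Xpc, a damage sensor, had log2 fold changes of -0.19, 0.10 and 0.04 (edgeR adjusted p from 0.128 to 0.58). Among 8 metabolic genes, Ak1, an adenylate kinase abundant in muscle, fell by 0.50 on the log2 scale (edgeR adjusted p = 0.0419), and with the muscle score as a covariate it was at 0.03. Tigar, a fructose bisphosphatase, and Sesn2, a relative of Sesn1, had log2 fold changes of -0.16 and 0.23 (edgeR adjusted p = 0.17 and 0.139). Among 8 genes of other roles, Plxnb2, a semaphorin receptor, and Abhd4, a lipid hydrolase, rose by 0.34 and 0.15 on the log2 scale (edgeR adjusted p = 0.025 and 0.0426). By limma on the authors' normalized signal Plxnb2 was at 0.05 (adjusted p = 0.796) and Abhd4 at 0.11 (0.149). Ephx1, an epoxide hydrolase, and Rps27l, a ribosomal protein, had log2 fold changes of -0.08 and -0.20 (edgeR adjusted p = 0.554 and 0.219).

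Of these 8 genes, Polh alone stayed called under all 13 omissions. The other 7 lost the call without WT 4 or WT 6, as they did without dblGATA 5, and without dblGATA 3 or dblGATA 7 all but Polh and, for dblGATA 7, Plk2 lost it. Dropping WT 1 ended it for Perp, Apaf1, Ak1 and Abhd4, WT 3 for Ak1 and Abhd4, WT 5 and dblGATA 2 for Ak1, dblGATA 4 for Apaf1, Ak1 and Abhd4, and dblGATA 6 for Apaf1 and Ak1 (highest edgeR adjusted p = 0.103). The basal epithelium and cell cycle lists, whose ranges did not overlap between the groups, moved with these genes. With the basal score in the fit Sfn was at -0.02, and the part of the cell cycle list was not tested. For the other genes that rose, the lowest log2 fold change in any of the 26 alternatives stayed above 0. It was 0.20 for Plk2, 0.19 for Perp, 0.15 for Polh, 0.07 for Apaf1, 0.05 for Abhd4 and 0.04 for Plxnb2. The number of the 39 targets called ran from 1 without WT 4, WT 6, dblGATA 3 or dblGATA 5 to 14 without WT 2, with 2 without dblGATA 7 and 4 without WT 1.

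**Figure D5:**
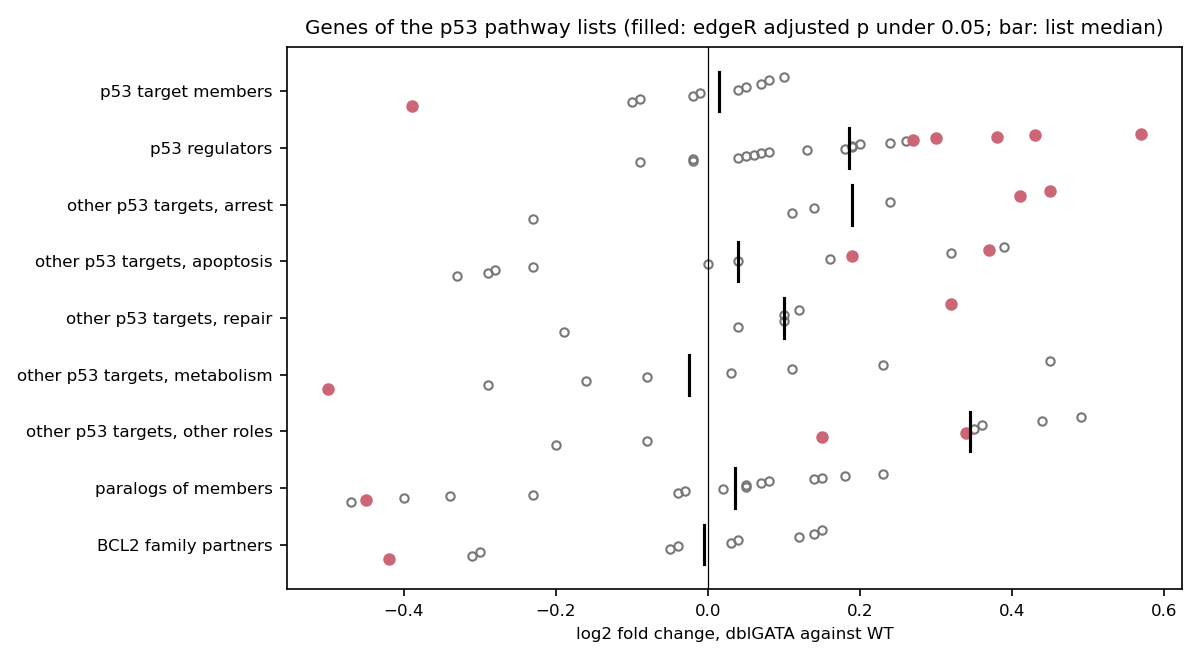
Log2 fold change, dblGATA against WT, of each gene (points) in the lists of the p53 pathway (rows). Filled points passed an edgeR adjusted p under 0.05, and the bar is the list median. The 10 p53 targets lie between -0.39 and 0.10, with Ccng1 as the lone filled point, and the regulators reach 0.57.

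Among close relatives of the 10 genes, Trp53inp2 was lower in dblGATA. Of 16 paralogs 1 fell (6.25%, median log2 fold change 0.03), which is near the 6.39% of all genes called lower. Trp53inp2, the relative of Trp53inp1 that acts in autophagy and is abundant in muscle, was at 254 ± 32.5 CPM (SD, n = 6) in WT and fell to 186 ± 18.3 CPM (SD, n = 7) in dblGATA (log2 fold change -0.45 ± 0.09 SE, adjusted p = 0.0172 by edgeR). It stayed called under all 13 omissions. With the muscle score as a covariate, a fit that called 0 genes in all, Trp53inp2 was at -0.20 (edgeR adjusted p = 0.685). Ccng2, named after its value was seen as the relative of Ccng1, had a log2 fold change of 0.07 (95% interval -0.10 to 0.24, edgeR adjusted p = 0.571). Cdkn1b, the relative of Cdkn1a that encodes p27, had -0.04 (95% interval -0.19 to 0.11), and Sesn3, the relative of Sesn1, 0.02 (95% interval -0.14 to 0.17).

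Of 10 BCL2 family genes beside Bax 1 fell, which is near the 6.39% of all genes called lower and is no result about the family. Bik, a death-promoting member, went down by a log2 fold change of -0.42 from 1.98 ± 0.356 CPM (SD, n = 6) in WT (edgeR adjusted p = 0.0479), a call lost without each library but WT 2 (highest adjusted p = 0.0945). Bak1, which opens the mitochondrial membrane as Bax does, had a log2 fold change of 0.15 (edgeR adjusted p = 0.139). The survival genes Mcl1, Bcl2l1 and Bcl2 had log2 fold changes of -0.05, 0.04 and -0.30 (edgeR adjusted p = 0.664, 0.706 and 0.301).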

How the data were processed

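Per the labels' protocols, RNA of preserved tissue was extracted with phenol and chloroform (mean RNA integrity number 8.8) and made into stranded, poly-A selected libraries. The authors deposited whole numbers per gene and library, read here as estimated counts rounded before deposit, because their ratio to the second deposited table, a normalized signal, varies by gene. The submitters' processing notes name DESeq2 1.34.0. The aligner, the counter and the build were not given in the sources used here. The deposited log2 fold changes and adjusted p-values are the authors' own, as are the pathway values, -log10 p, the fraction of pathway members (given as a percent) and a z score, made with Ingenuity Pathway Analysis, per the file headers.

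Genes were kept by filterByExpr (minimum count 10, minimum total 15), scaled by TMM and tested with robust quasi-likelihood fits in edgeR 4.0.16 under R 4.3.3, with Benjamini-Hochberg adjustment over all 16599 genes and a threshold of 0.05. The SE is the log2 fold change divided by the root of the F statistic. Scores of gene lists are means of log2(CPM + 0.5) over the genes tested. Between 0.0306 and 0.0452 CPM corresponded to a floor of 3 counts, for counting error only. Libraries of a group differed by more than sampling noise (chi-square per degree of freedom at least 58.4). The script was tested on simulated data. Identifiers matched GENCODE M21 for 99.7% of genes without their version and for 0.0549% with it, so coordinates come from RefSeq GRCm38.p6 alone. Reads of paralogs may be shared, since how multiply mapped reads were counted is not given.

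The 10 genes, the lists and the alternatives were chosen with earlier results of these data known. Named were all 10 genes, every called gene of a pathway list, up to 3 abundant ones not called, and Trp53, Mdm4, Bcl2 and Bcl2l1. Ccng2, Bbc3, Pmaip1 and Fas were added outside this rule. Trac was not matched. Alternatives were DESeq2 1.42.0, limma-voom and limma 3.58.1 on log2(signal + 1), other scalings and filters, a replicate block, omitted libraries and covariates.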

Additional observations from a re-analysis of the deposited data

Results flagged for a closer look

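Of 28 sets of values (10 genes and 4 ratios in each group), 3 held a library whose gap to its nearest neighbour was large for the range of its group, and chance flags about 1 in 20 such sets. Mdm2 stood at 67.5 CPM in WT 2, and the next WT library at 56.4 CPM. Phlda3 stood at 240 CPM in dblGATA 5, and the next dblGATA library at 188 CPM. Aen stood at 55.6 CPM in the same library, dblGATA 5, and the next at 46.9 CPM.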

How the results depend on the processing

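Ccng1 lost its call, with log2 fold changes of -0.34 with the replicate block, -0.21 with the skeletal muscle score, -0.31 with Rn18s and -0.32 without WT 4 and WT 6, and was at 0.14 with the basal epithelium score. None of the 10 targets and none of the 39 other targets was called without WT 4 and WT 6 or with any of these 3 covariates. There 0 genes in all were called by edgeR, with 3542, 1200, 3912 and 335 genes at an unadjusted p under 0.05 (in the order of those 2 libraries left out, the muscle score, Rn18s and the basal score). The labels do not say whether replicate numbers pair the libraries of the 2 groups. Libraries of the same number had correlations of -0.14 to 0.14, and 2 of 12 libraries were closest to their own number. The replicate block called 868 genes, 0 of the 10 targets and 3 of the 39. DESeq2 called 3503 genes and 14 of the 39. Without 1 library the calls ran from 357 to 3828 of all genes, from 0 to 1 of the 10 and from 1 to 14 of the 39, and Ccng1 from -0.46 to -0.33. The 9 uncalled targets passed in none of the 26 alternatives, and signs near 0 changed. On the authors' signal Mdm2 was at 0.03 and Bax at 0.00. Without WT 4 and WT 6 Bax was at 0.02, Trp53inp1 at -0.01 and Eda2r at 0.01, and without WT 3 and WT 5 Trp53inp1 was at -0.01 and Aen at 0.00. With the muscle score Trp53inp1 was at -0.22, Zmat3 at -0.01 and Ak1 at 0.03, and with Rn18s Bax was at 0.05 and Eda2r at 0.03. With the basal score Zmat3 was at -0.05, Aen at -0.16, Eda2r at 0.37, Trp53 at -0.12, Sfn at -0.02 and Ak1 at 0.01. Without 1 library Mdm2 ran from -0.03 to 0.04, Bax from -0.08 to 0.01, Trp53inp1 from -0.02 to 0.19 and Aen from 0.00 to 0.08. The ratio of Bax to Bcl2 ran from -0.05 to 0.34, Bax to Bcl2l1 from -0.12 to -0.01, Mdm2 to Mdm4 from -0.10 to -0.03 and Ccng1 to Cdkn1a from -0.53 to -0.39 (exact permutation p from 0.00758 to 0.0328). These p-values are unadjusted, and the pair of Ccng1 and Cdkn1a was chosen with results of these data known. With all libraries its exact permutation p adjusted over the 4 ratios was 0.0628. The cause of the changes between settings was not tested. The interval printed with each gene is the limit that 6 and 7 libraries set.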

Other observations

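The authors' deposited pathway table held a p53 Signaling pathway with a -log10 p of 4.79, a z score of 0.655 and 28 molecules, 28.6% of the pathway, of which Ccng1 was the 1 gene shared with the 10 targets. These 28 had been chosen by the authors from the same libraries, so their count is no separate evidence. In edgeR 15 of the 28 were higher, 5 were lower and 8 did not pass, beside 7.10% of all genes called higher and 6.39% lower. Among the genes that rose beside Trp53, Trp63, Trp73, Chek2, Perp and Sfn were Hif1a, the oxygen-responsive factor (log2 fold change 0.81, edgeR adjusted p = 0.0242), Trim29, a basal keratinocyte protein (0.54, 0.017), Snai2, a zinc-finger repressor (0.51, 0.0326), Brca1, a recombination factor (0.48, 0.0278), Topbp1, an activator of the checkpoint kinase Atr (0.43, 0.019), and Serpinb5, the epithelial serpin maspin (0.38, 0.0272). The remaining higher genes were Gnl3, Hdac1 and Pik3c3, with log2 fold changes of 0.32, 0.23 and 0.19 (edgeR adjusted p = 0.0293, 0.025 and 0.0478). Coq8a, a coenzyme Q factor of mitochondria (-0.56, 0.034), Gadd45g, a stress-response gene (-0.48, 0.0233), Akt2, a kinase of insulin signalling (-0.29, 0.0281), and Kat2b, an acetyltransferase (-0.20, 0.0491), fell beside Ccng1. These genes were named after their values were seen, and the lists of basal epithelium and skeletal muscle moved between the same groups, with their part in these values not tested gene by gene.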
